A study of Mus musculus with 4 samples.

Results

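NF-κB is a family of transcription factors that T cells use to answer signals from the T cell receptor, costimulation and TNF family cytokines. In resting cells dimers of its subunits (Rel, Rela, Relb, Nfkb1 and Nfkb2) are held in the cytosol by inhibitor proteins of the IκB family, chiefly Nfkbia, Nfkbib and Nfkbie. Signals reach the IKK kinase complex, which marks the inhibitors for degradation and frees the dimers, and the genes of several inhibitors are themselves NF-κB targets, which closes a feedback loop. The atypical IκB proteins Nfkbiz and Bcl3 act in the nucleus instead, where they bind the DNA-bound dimers and alter transcription. In mice, Nfkbiz is known to be needed for Th17 development. The 10 genes named here were chosen as a family, and 9 of them had probe sets that name the gene alone, 18 of the 45101 probe sets on the array. Nfkb1 was not analysed here.

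The cells were naive CD4+ T cells (CD44-negative, CD62L-positive) taken from the spleens and lymph nodes of mice (C57BL/6J) with the OT2 T cell receptor transgene, then stimulated for 72 h with platebound antibody to CD3 and antibody to CD28. All 4 cultures received IL-6 at 20 ng/ml, TGF-β at 2 ng/ml and an antibody that blocks IL-4, conditions that favour Th17 cells, the helper fate marked by IL-17. STAT3-deficient cells (CD4-Cre stat3 fl/fl OT2) and STAT3 wild-type cells (stat3 fl/fl OT2) were also given antibody that neutralises IL-2 (10 µg/ml). STAT5-deficient cells (CD4-Cre stat5 fl/fl OT2) and STAT5 wild-type cells (stat5 fl/fl OT2) received IL-2 at 100 IU/ml instead. Cre was driven by the Cd4 promoter, so deletion began in T cell development and not in the culture. The controls were floxed mice without Cre, so effects of Cre itself cannot be told apart from loss of the STAT. The sources used here give neither age, nor sex, nor how many animals a culture came from. There was 1 array per group. No difference below therefore has a replicate check, a standard error or a p-value, and precision is limited by having so few arrays.

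Values are given on the log2 scale of the deposited table, where a difference of 1 is 2-fold, and "higher" or "lower" in a count of genes means past 2-fold. Levels of different genes come from different probes and are not compared with each other. The median of all values, 6.20, served as the background level, and all 9 genes lay above it on each array. Stat3 was lower by 2.94 on the STAT3-deficient array than on its control, and Stat5a and Stat5b were lower by 5.01 and 5.24 on the STAT5-deficient array, while 2 further Stat3 probe sets were lower by only 0.22 and 0.41 without STAT3. The genotype labels of both deficient samples nevertheless end in the words for wild type. Of 7 CD4 T cell markers, 6 had a probe set and stood between 10.88 and 13.16 on the 4 arrays. Of the CD8 T cell markers, Cd8b1 stood between 7.70 and 8.06 and Cd8a between 6.18 and 6.88. B cell and NK cell markers lay between 4.36 and 6.67, and 8 myeloid and dendritic cell markers had a mean of 5.87 in STAT3-deficient, 5.87 in STAT3 wild-type, 5.76 in STAT5-deficient and 5.73 in STAT5 wild-type cells, with 2 to 4 of them above the background level. The part of other cell types in the results was not tested. Il17a, the 1 Th17 marker measured of 4 listed, stood at 9.23 and 14.12 in STAT3-deficient and STAT3 wild-type cells and at 14.44 and 13.85 in STAT5-deficient and STAT5 wild-type cells. In RNA from whole cultures, fewer cells that express a gene and less RNA per cell cannot be told apart.

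Promoters of 7 of the 9 genes were available from RefSeq (GRCm38.p6), as windows from 250 bases before to 50 bases after a transcription start. They are shown because the NF-κB genes are known to be regulated by NF-κB itself, and because the members differ in whether the window holds a match to the κB motif. The NF-κB consensus motif was searched by its standard letters on both strands, and also the STAT motif TTCNNNGAA, which reads the same on both strands in its fixed letters. At least 1 κB match was found for 5 of the 7 genes, Nfkb2, Rel, Nfkbia, Nfkbie and Bcl3, whereas the windows of Rela and Nfkbib held none. A κB match occurred in 9.55% of the 27025 genes with windows, and in 8.46% of all 32851 windows. The 9 windows of the NF-κB genes had a median GC content of 65.7%, against 52.7% over all windows and 58.7% over all windows with a κB match. The motif is itself rich in G and C, and the part of base composition in these counts was not tested. A STAT match was found for 1 of the 7 genes, Nfkb2, against 9.55% of genes. A match describes letters and not a bound site. In the following lines, 5′ to 3′ on the gene's own strand, capitals mark matches to the κB motif, and in Nfkb2 also the STAT match, the first run of capitals.
Nfkb2 (chr19:46304487-46304786, plus strand): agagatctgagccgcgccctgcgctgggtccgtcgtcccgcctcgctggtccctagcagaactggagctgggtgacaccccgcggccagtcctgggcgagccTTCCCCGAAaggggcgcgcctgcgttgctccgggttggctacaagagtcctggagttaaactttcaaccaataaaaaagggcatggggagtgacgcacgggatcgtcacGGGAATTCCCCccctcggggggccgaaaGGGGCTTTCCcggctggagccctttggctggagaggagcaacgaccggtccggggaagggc
Rel (chr11:23770920-23771219, minus strand): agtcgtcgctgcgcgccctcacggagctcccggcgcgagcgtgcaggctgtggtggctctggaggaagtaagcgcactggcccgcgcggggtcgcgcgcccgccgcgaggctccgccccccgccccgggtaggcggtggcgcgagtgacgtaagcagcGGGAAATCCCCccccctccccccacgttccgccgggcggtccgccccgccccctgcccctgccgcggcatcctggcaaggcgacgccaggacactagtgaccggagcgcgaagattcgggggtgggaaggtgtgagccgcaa
Nfkbia (chr12:55492598-55492897, minus strand): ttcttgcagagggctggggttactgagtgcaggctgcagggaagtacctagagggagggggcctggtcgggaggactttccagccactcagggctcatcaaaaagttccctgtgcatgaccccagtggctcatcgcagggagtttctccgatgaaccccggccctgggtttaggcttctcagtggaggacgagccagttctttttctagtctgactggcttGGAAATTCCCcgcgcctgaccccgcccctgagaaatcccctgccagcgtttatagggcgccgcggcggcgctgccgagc
Nfkbie (chr17:45555450-45555749, plus strand): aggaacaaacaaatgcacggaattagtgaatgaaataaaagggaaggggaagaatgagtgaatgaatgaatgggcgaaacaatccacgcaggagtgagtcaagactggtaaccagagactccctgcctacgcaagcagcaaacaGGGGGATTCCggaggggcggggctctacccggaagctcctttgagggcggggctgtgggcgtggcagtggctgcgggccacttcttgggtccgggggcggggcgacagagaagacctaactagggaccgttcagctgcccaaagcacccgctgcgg
Bcl3 (chr7:19822706-19823005, minus strand): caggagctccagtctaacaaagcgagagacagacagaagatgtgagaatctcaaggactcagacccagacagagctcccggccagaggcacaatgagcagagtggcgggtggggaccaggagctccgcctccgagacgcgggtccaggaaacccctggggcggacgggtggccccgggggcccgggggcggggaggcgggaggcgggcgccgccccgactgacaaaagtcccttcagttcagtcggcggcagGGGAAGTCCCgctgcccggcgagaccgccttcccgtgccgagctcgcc

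The match in Bcl3 lies past the start, at bases 3 to 12 of the transcript, and reads GGGAAGTCCC. In Nfkbia the match GGAAATTCCC lies at bases -29 to -20 from the start. Rel holds 2 overlapping matches, GGGAAATCCC at -92 to -83 and GGAAATCCCC at -91 to -82. In Nfkbie the match GGGGGATTCC lies at -106 to -97. The first Nfkb2 window holds 2 overlapping matches at -39 to -30 and -38 to -29 and a further one, GGGGCTTTCC, at -11 to -2. Nfkb2 has 2 more start sites in the table, whose windows overlap and share a κB match.

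Among the subunits, Rel was the gene that differed most, and it was higher without either STAT. Rel encodes c-Rel, the subunit with which lymphocytes drive Il2 and, in regulatory T cells, Foxp3. Its level was 8.81 in STAT3-deficient cells, against 7.52 in STAT3 wild-type cells. In the other pair, STAT5-deficient cells read 9.01 and STAT5 wild-type cells 7.92. Both deficient cultures stood above both controls. The differences were 1.28 (2.44-fold) without STAT3 and 1.09 (2.13-fold) without STAT5, on the 1 probe set that names Rel. Ranked with their sign, so that lower genes count as below, these exceeded the differences of 98.1% and 98.5% of the 12440 genes compared. Rel was the 1 member of the family among 47 genes, 0.378% of those compared, that were 2-fold higher in both deletions. After quantile normalization of the arrays the difference without STAT5 came to 0.999, just short of 2-fold, and the one without STAT3 to 1.60.

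The other subunits stayed within 2-fold. Nfkb2, whose precursor protein is processed in the alternative NF-κB pathway, stood at 11.04 in STAT3-deficient and 10.37 in STAT3 wild-type cells, and at 10.98 in STAT5-deficient and 10.76 in STAT5 wild-type cells. The lowest of these 4 levels was that of STAT3 wild-type cells, and the differences were 0.67 and 0.22. Its other probe set gave 0.31 and 0.71, so the direction was the same in both pairs while the larger of the 2 differences was not.

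Rela and Relb were lower in STAT3-deficient cells, by less than 2-fold. Rela encodes the main transactivating subunit of the canonical pathway, and its levels were 11.09 in STAT3-deficient and 11.59 in STAT3 wild-type cells (-0.51), and 11.76 in STAT5-deficient and 11.37 in STAT5 wild-type cells (0.39). Relb, the partner of processed Nfkb2 in the alternative pathway, stood at 9.54 and 10.08 in STAT3-deficient and STAT3 wild-type cells (-0.54), and at 10.34 and 10.30 in STAT5-deficient and STAT5 wild-type cells (0.04). The last difference turned to -0.02 with each array centred on its median. Across the 4 measured subunits, Rel and Nfkb2 thus lay above 0 without STAT3 and Rela and Relb below. Over all genes compared the median was -0.20, and 30.7% lay above 0.

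**Figure D1:**
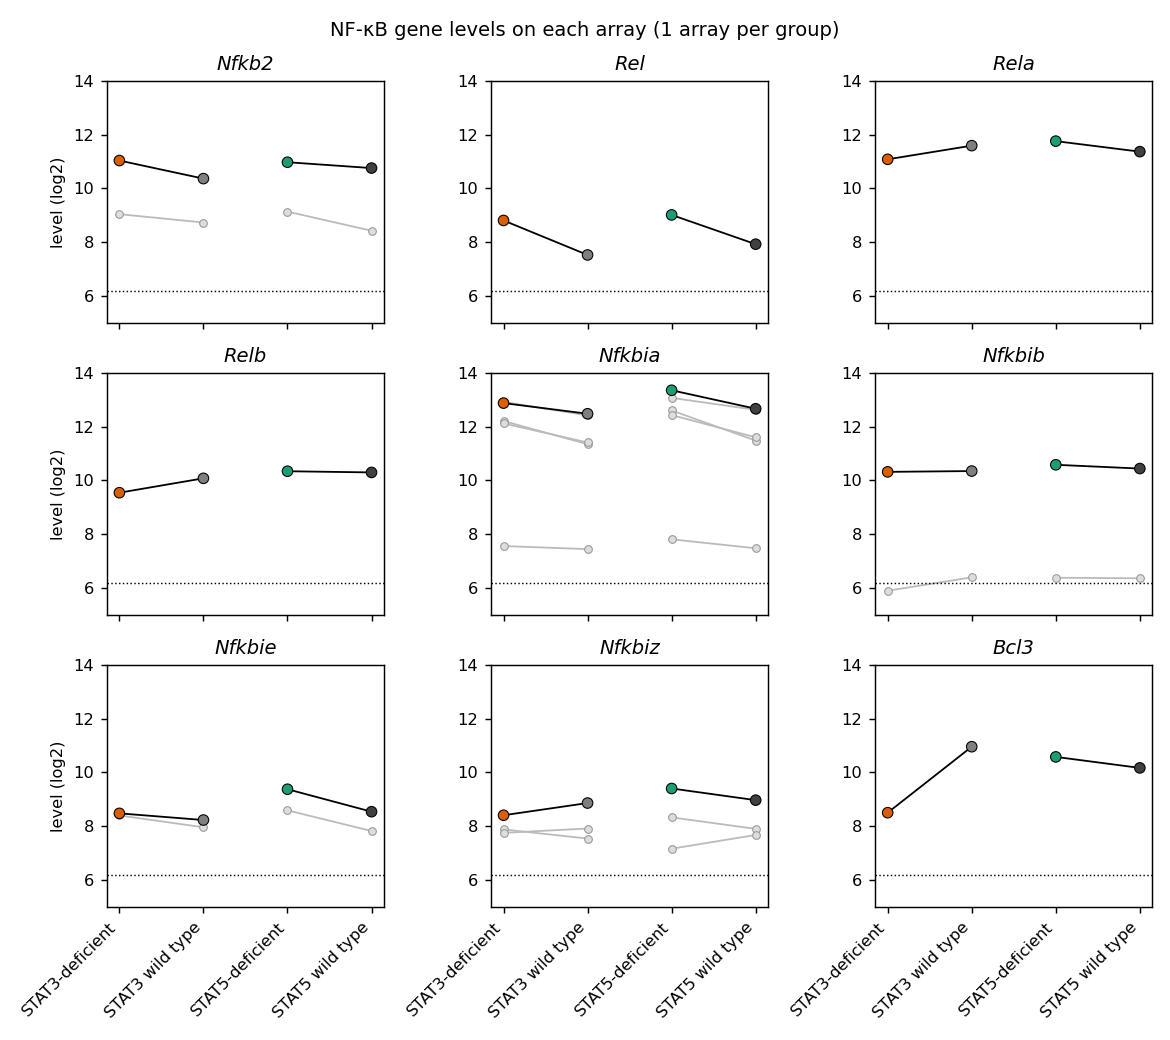
Level (log2, vertical axis) of each NF-κB gene on each of the 4 arrays, with large coloured points for the probe set with the highest mean, small grey points for the other probe sets, lines joining a deficient culture to its control, and the dotted line marking the background level of 6.20. In Bcl3 the STAT3-deficient point, at 8.50, stands below the other 3, and in Rel both deficient cultures, at 8.81 and 9.01, stand above both controls.

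Nfkbia was the inhibitor with the most probe sets, and all 5 lay above 0 in both deletions. It encodes IκBα, which retains dimers in the cytosol and is quickly remade after NF-κB is activated. The probe set with the highest mean read 12.88 in STAT3-deficient and 12.48 in STAT3 wild-type cells, and 13.36 in STAT5-deficient and 12.67 in STAT5 wild-type cells. Both deficient cultures stood above both controls. The differences were 0.40 (1.32-fold) without STAT3 and 0.69 (1.61-fold) without STAT5. Over the 5 probe sets they ran from 0.11 to 0.86 without STAT3 and from 0.33 to 1.12 without STAT5. The largest belonged to one that read 12.61 in STAT5-deficient and 11.48 in STAT5 wild-type cells, the 1 probe set of the gene past 2-fold. The probe set with the smallest differences was also the dimmest, with levels between 7.44 and 7.81.

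Nfkbie, which encodes IκBε, differed mainly in the STAT5 pair. It stood at 9.38 in STAT5-deficient cells, against 8.54 in STAT5 wild-type cells, a difference of 0.84 (1.79-fold). Ranked with its sign, Nfkbie lay above 97.1% of genes. In STAT3-deficient and STAT3 wild-type cells it stood at 8.48 and 8.23, a difference of 0.25. Its other probe set gave 0.77 without STAT5 and 0.44 without STAT3.

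Nfkbib, which encodes IκBβ, was the member that varied least, with 0.26 between its highest and lowest array. Levels were 10.32 and 10.35 in STAT3-deficient and STAT3 wild-type cells, and 10.58 and 10.44 in STAT5-deficient and STAT5 wild-type cells. The differences of -0.03 and 0.14 compare with a median SD of 0.23 and 0.17 between probe sets of the same gene in these 2 comparisons, over 5557 genes. With arrays centred, the first was 0.21. The second Nfkbib probe set was under the background level in STAT3-deficient cells, at 5.89, and stood between 6.36 and 6.39 on the other arrays.

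Bcl3 showed the widest difference of the family. It encodes a nuclear IκB protein that joins homodimers of the subunits without a transactivation domain. Bcl3 stood at 8.50 in STAT3-deficient cells, against 10.96 in STAT3 wild-type cells, and at 10.58 in STAT5-deficient cells, against 10.17 in STAT5 wild-type cells. The STAT3-deficient array lay below the other 3, which were within 0.79 of one another. The difference without STAT3 was -2.46 (5.49-fold), lower than that of all but 0.933% of genes, and without STAT5 it was 0.41. One probe set names the gene. With other scalings of the arrays the difference without STAT3 lay between -2.21 and -2.33.

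Nfkbiz, which encodes IκBζ, was read differently by its 3 probe sets. The one with the highest mean stood at 8.41 in STAT3-deficient and 8.86 in STAT3 wild-type cells (-0.45), and at 9.40 in STAT5-deficient and 8.97 in STAT5 wild-type cells (0.43). The other 2 gave 0.34 and -0.16 without STAT3, and 0.43 and -0.51 without STAT5. No direction for Nfkbiz was shared by all 3 in either pair, and none passed 2-fold.

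**Figure D2:**
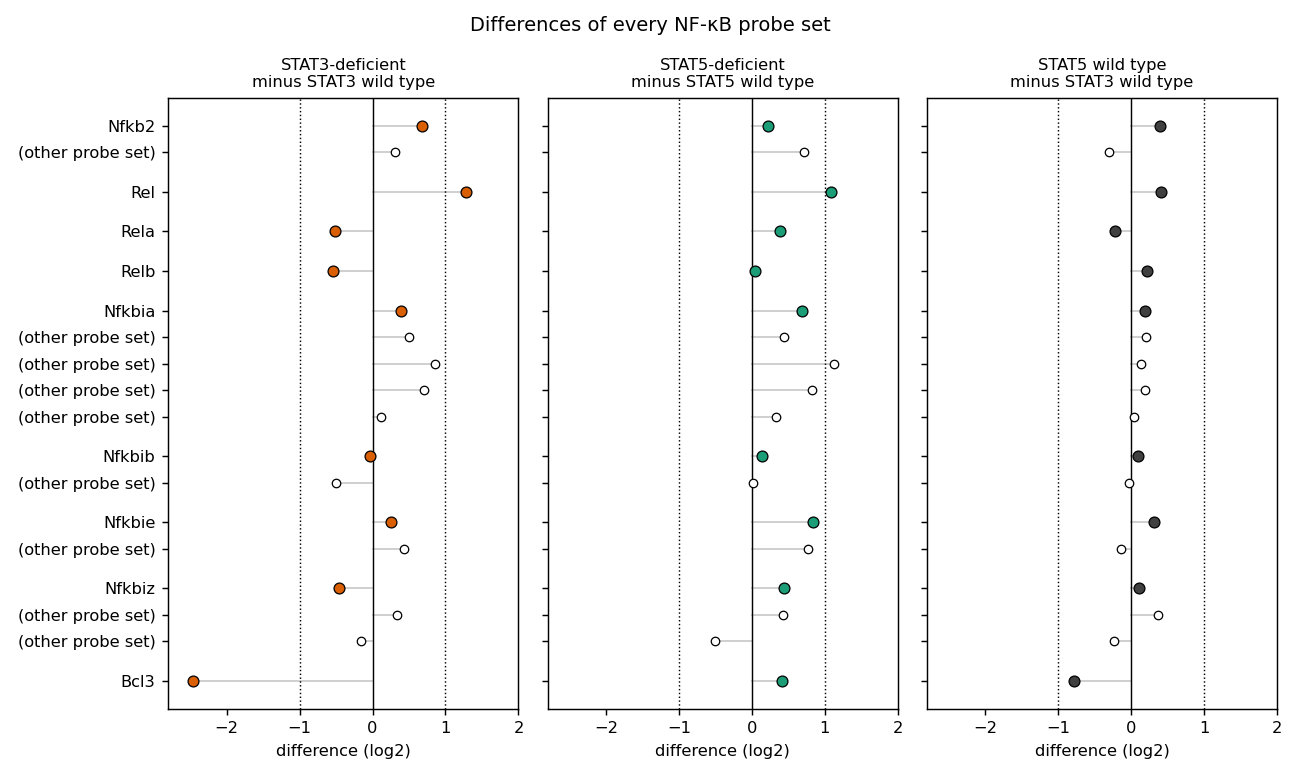
Difference (log2, horizontal axis) of each of the 18 probe sets in 3 comparisons, with filled points for the probe set with the highest mean, open points for the others and dotted lines at 2-fold. Past 2-fold lie Bcl3 (-2.46) and Rel (1.28) without STAT3, and Rel (1.09) and 1 Nfkbia probe set (1.12) without STAT5.

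Counted over the family, 1 of 9 genes was higher without STAT3 (Rel) and 1 lower (Bcl3), where 2.85% of all genes compared were higher and 7.23% lower (10.1% in all). The family's median difference was -0.03, against -0.20 for all genes, and it turned to 0.21 with arrays centred, 0.12 after loess and 0.15 after quantile normalization. Without STAT5, 1 of 9 was higher (Rel) and 0 lower, where 1.86% of genes were higher and 1.74% lower (3.6% in all). All 9 lay above 0 in that pair, as did 59.4% of genes. Of the 18 probe sets, 5 of them for Nfkbia alone, 17 lay above 0, and no share over all probe sets was computed. The family's median of 0.41 compares with 0.06 for all genes. With each array centred, 8 of the 9 lay above 0.

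The 2 deletions share no array. Nfkb2, Rel, Nfkbia and Nfkbie lay above 0 in both pairs, a pattern found in 20.1% of genes. Rela, Relb, Nfkbib, Nfkbiz and Bcl3 lay below 0 without STAT3 and above 0 without STAT5, as did 39.3% of genes. Both groups depend on the scaling, and the place of Nfkbiz also depends on which of its 3 probe sets is read. With arrays centred, after loess and after quantile normalization, Nfkbib without STAT3 was at 0.21, 0.12 and 0.15 and so above 0 in both pairs. Relb without STAT5 was then just below 0, at -0.02 with arrays centred.

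**Figure D3:**
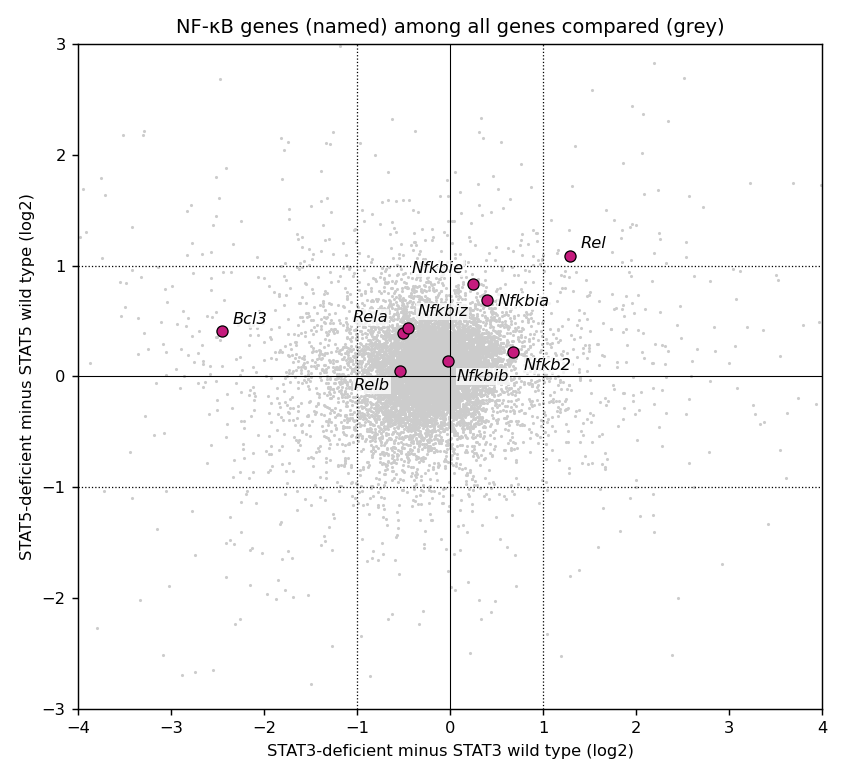
Difference (log2) without STAT3 on the horizontal axis and without STAT5 on the vertical axis for the genes compared (grey, with 58 of 12440 beyond the axes) and the 9 NF-κB genes (named), dotted lines at 2-fold. Rel lies past 2-fold on both axes, at 1.28 and 1.09, and Bcl3 at -2.46 and 0.41.

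Between the controls, STAT5 wild-type cells with IL-2 added were set against STAT3 wild-type cells with IL-2 neutralised. These cultures differ in both the floxed locus and the IL-2 treatment, which cannot be told apart, and each array also serves as a control above. None of the 9 genes was 2-fold higher or lower as deposited, where 2.35% of genes were higher and 2.95% lower (5.3% in all). Bcl3 was farthest, at 10.17 in STAT5 wild-type and 10.96 in STAT3 wild-type cells (-0.79), a difference that passed 2-fold at -1.01 after intensity-dependent centring and at -1.03 after quantile normalization. Rel stood at 7.92 and 7.52 in STAT5 wild-type and STAT3 wild-type cells (0.40). The other 7 lay between -0.22 (Rela) and 0.39 (Nfkb2), and the family's median was 0.19, against 0.06 for all genes. Of the 18 probe sets of the family, 12 lay above 0 and 6 below, among the latter the other probe sets of Nfkb2 (-0.31) and Nfkbie (-0.14). After quantile normalization the family's median was -0.01 and the members above 0 numbered 4, against 7 as deposited. As deposited, 55.3% of all genes lay above 0, and that share was not computed after quantile normalization.

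The 3 genes whose 4 levels ran most like those of a member were found for each member that varied by 2-fold or more, by the root mean square difference of the levels after centring each gene on its own mean, over 12431 genes. With 4 arrays such likeness is a description. For Bcl3 they were S100a3 (0.07), a calcium-binding protein, Lpxn (0.09), a leupaxin adaptor of lymphoid cells, and Csgalnact1 (0.12), an enzyme of chondroitin sulfate synthesis. Lpxn stood at 10.62 in STAT3-deficient and 13.12 in STAT3 wild-type cells, and at 12.86 in STAT5-deficient and 12.50 in STAT5 wild-type cells. For Rel they were Pdcd1 (0.12), which encodes the inhibitory receptor PD-1, Npas4 (0.14), an activity-induced transcription factor, and Crabp2 (0.15), a retinoic acid binding protein. Pdcd1 stood at 11.17 and 9.89 in STAT3-deficient and STAT3 wild-type cells and at 11.31 and 9.99 in STAT5-deficient and STAT5 wild-type cells. For Nfkbie they were Foxd2 (0.05), a forkhead factor, Dusp14 (0.06), a phosphatase of MAP kinase signalling, and Smim5 (0.07). S100a3, Foxd2 and Smim5 were under the background level on at least 1 array.

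Upstream of the family, Malt1 differed most. It encodes the paracaspase that, together with Bcl10, carries the T cell receptor signal to IKK. Malt1 stood at 8.97 in STAT3-deficient cells, against 12.02 in STAT3 wild-type cells (-3.06, 8.31-fold), and at 10.94 in STAT5-deficient cells, against 11.97 in STAT5 wild-type cells (-1.03). All 3 Malt1 probe sets were past 2-fold without STAT3, at -2.32 to -3.06. Without STAT5 they ran from -0.41 to -1.03, and their mean of -0.73 was short of 2-fold. By the probe set with the highest mean, Malt1 was the 1 of 10 measured genes of the canonical route that was lower without STAT3, and 0 were higher. Over all genes 7.23% were lower. With probe sets that can match several transcripts left out where a gene had others, the lower genes numbered 2, where 892 of 12039 genes were lower. At 1.5-fold they also numbered 2, where 2389 of 12440 genes were lower. The gene besides Malt1 was not the same in these settings. Ikbkg, the regulatory subunit gene of IKK, named after its values were seen, was read differently by its 6 probe sets. The one with the highest mean gave -0.23 without STAT3, while another gave -1.30, at 7.73 in STAT3-deficient and 9.03 in STAT3 wild-type cells, and -0.53 without STAT5.

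Traf6, an adaptor ligase of that route, was highest in STAT5 wild-type cells. Its level was 8.64 in STAT5-deficient cells, against 10.00 in STAT5 wild-type cells (-1.35), while STAT3-deficient and STAT3 wild-type cells read 8.84 and 8.75. Of its 5 probe sets, 3 were above the background level on all arrays and gave -1.35, -1.59 and -1.82 without STAT5. Another was above it in STAT5 wild-type cells only, at 6.85, and the last on no array. STAT5 wild-type cells were 1.25 above STAT3 wild-type cells in this gene. Traf6 and Malt1 were the 2 genes of the list called lower without STAT5, where 1.74% of all genes were, and 0 were higher.

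In the alternative pathway, 2 of 4 measured genes were lower without STAT3, both narrowly, where 7.23% of all genes were lower. Map3k14, which encodes the kinase NIK, stood at 7.57 in STAT3-deficient and 8.58 in STAT3 wild-type cells (-1.01), and Birc3, a ubiquitin ligase that restrains NIK, at 9.88 and 10.96 in the same cells (-1.07). With arrays centred both were short of 2-fold, at -0.76 and -0.83. Without STAT5 none of the 4 passed 2-fold, where 3.6% of all genes did. Birc2, the close relative of Birc3, was farthest at 10.54 in STAT5-deficient and 9.85 in STAT5 wild-type cells (0.69). Of 8 TNF receptor family genes that feed these pathways, 2 were higher without STAT3, Tnfrsf18 (GITR, 1.24) and Tnfrsf9 (4-1BB, 1.01), where 2.85% of all genes were. Averaged over its probe sets, 1 of them under background, Tnfrsf9 came to 0.79, while a further probe set gave 1.56. Tnfrsf8, which encodes CD30, was the 1 lower gene, where 7.23% of all genes were lower. It stood at 6.03 in STAT3-deficient and 7.43 in STAT3 wild-type cells (-1.39). In STAT5-deficient and STAT5 wild-type cells Tnfrsf8 stood at 6.91 and 5.32 (1.59). It was the 1 gene of that list past 2-fold in this pair, where 1.86% of all genes were higher. It was under the background level in STAT3-deficient and STAT5 wild-type cells, so its differences are uncertain in size.

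The negative regulators held 1 wide difference. Tnip2, a partner of the ubiquitin-editing enzyme Tnfaip3 (A20), stood at 7.90 in STAT3-deficient cells and 10.85 in STAT3 wild-type cells (-2.95, 7.74-fold), and at 10.85 and 10.78 in STAT5-deficient and STAT5 wild-type cells. N4bp1, an inhibitor of NF-κB signalling, was also lower without STAT3 (-1.14), or -0.90 with arrays centred. These were the 2 lower genes of 15, against 7.23% of all genes, and 0 were higher. Tnfaip3 itself, an NF-κB target that feeds back on the pathway, stood at 11.67 in STAT5-deficient cells, against 10.62 in STAT5 wild-type cells (1.05), the 1 gene of the list called in that pair, where 1.86% of all genes were higher. This was 0.99 with arrays centred, while its other probe set gave 1.08. Without STAT3 the 2 Tnfaip3 probe sets gave 0.48 and 0.998.

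Genes known as NF-κB targets went past 2-fold in both directions. Without STAT3, 7 of 23 were higher and 1 lower, against 2.85% and 7.23% of all genes, and their median was 0.17 against -0.20 for all genes. Cd83, an activation marker, stood at 11.28 in STAT3-deficient and 6.60 in STAT3 wild-type cells (4.68), and Csf2, which encodes GM-CSF, at 10.45 and 6.29 in the same cells (4.17). In STAT3 wild-type cells both lay near the background level of 6.20, so the sizes of these differences are uncertain. Ebi3 (1.97), Gadd45b (1.47), Tnf (1.26), Lta (1.19) and Ccr7 (1.04) were the other higher genes and Irf4 (-1.14) the lower one. Averaged over its probe sets, Gadd45b came to 0.99, with 1 probe set near the background level at 0.02 and the others at 1.47 and 1.49.

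Without STAT5, 1 of the 23 target genes was higher and 5 lower, against 1.86% and 1.74% of all genes, and their median was -0.18 against 0.06. Il2 was the higher gene, at 9.22 in STAT5-deficient and 6.88 in STAT5 wild-type cells (2.33). Lta, the lymphotoxin gene, stood at 11.44 and 13.96 (-2.52), Csf2 at 5.84, under the background level, and 8.36 (-2.52), and Ltb at 10.51 and 12.41 (-1.90) in the same cells. Ier3 (-1.47) and Ccr7 (-1.03) were the other lower genes. The names of Tnf, Ccr7, Irf4, Ier3 and, for the first pair, Lta were chosen after their values were seen. Between the controls, 4 of 23 were higher in STAT5 wild-type than in STAT3 wild-type cells and 0 lower, against 2.35% and 2.95% of all genes. The higher genes were Lta (2.77), Cd83 (2.56), Csf2 (2.07) and Ebi3 (1.28), with Cd83 and Csf2 near the background level in STAT3 wild-type cells. In that comparison Tnfrsf8 (-2.10) was lower and Tank, an adaptor that binds TRAF proteins, higher (1.12, or 0.74 over its probe sets).

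**Figure D4:**
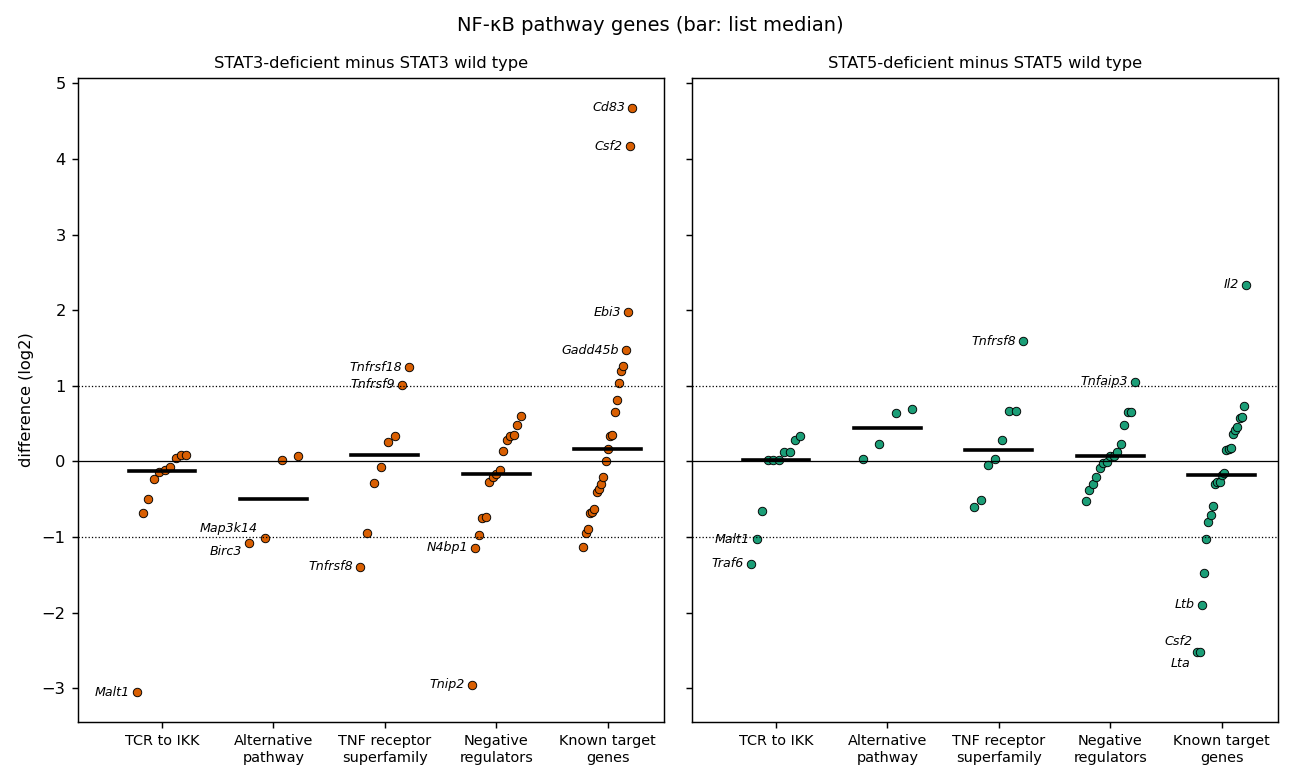
Difference (log2, vertical axis) of each gene of 5 NF-κB pathway lists without STAT3 (left) and without STAT5 (right), with bars at list medians, dotted lines at 2-fold and names for up to 4 genes past 2-fold per list. Malt1 (-3.06) and Tnip2 (-2.95) stand apart from their lists on the left, and among the target genes Csf2 stands at 4.17 on the left and -2.52 on the right.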

How the data were processed

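Expression was measured on Affymetrix mouse arrays, with RNA of each of the 4 cultures on an array of its own. Per the labels, the authors processed the arrays with Affymetrix Power Tools, and the deposited values, between 2.48 and 15.09, were read as log2 expression per probe set. The sources used here give no log base, normalization or summarisation, and another base would change every fold change.

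The platform annotation names 1 gene for 34958 of 45101 probe sets, and RefSeq identifiers (GRCm38.p6, for names and promoters) matched for 99.4% of these. A gene's value is its probe set with the highest mean. Genes whose highest value exceeded 6.20, the median of all values, were compared: 12440 of 18194 (68.4%), all 9 measured members included. With 1 array per group, results are differences called at 2-fold, with no test. The code was checked on simulated arrays.

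The members, gene lists and naming rule were chosen with earlier results of these data known. The rule names all members, up to 4 genes per list and comparison past 2-fold (or the farthest), and 3 genes closest to each variable member. Listed pathway genes without a value were not analysed here. Alternatives covered probe sets, the filter, array scaling (median, loess with span 0.4, quantile) and thresholds, with Python 3.11.15, pandas 2.3.3 and statsmodels 0.14.6.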

Additional observations from a re-analysis of the deposited data

Results flagged for a closer look

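Among the genes of the NF-κB lists, 4 differed by 2-fold or more in opposite directions in the 2 deletions. Each side had 1 array, and the contrast between the deletions was not tested. Csf2, Lta and Ccr7 were among 23 known target genes, and Tnfrsf8 among 8 TNF receptor family genes. The other lists, of 10, 4 and 15 measured genes, held none. The share of all genes with this pattern was not computed, so the count has no background to be read against. Csf2 was at 4.17 without STAT3 and -2.52 without STAT5, Lta at 1.19 and -2.52, Ccr7 at 1.04 and -1.03, and Tnfrsf8 at -1.39 and 1.59. Tnfrsf8 was under the background level in STAT3-deficient (6.03) and STAT5 wild-type cells (5.32), and Csf2 in STAT5-deficient cells (5.84). Csf2 in STAT3 wild-type cells (6.29) lay close to that level, so the sizes of the Tnfrsf8 and Csf2 differences are uncertain. None of the 9 NF-κB genes showed this. The STAT3 pair was cultured with IL-2 neutralised and the STAT5 pair with IL-2 added, so the deletion and the culture cannot be told apart in this contrast.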

How the results depend on the processing

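No paired analysis was possible because each group has 1 array, and for the same reason no replicate could be left out. Of the recomputed counts and medians of the family, 65 kept their value within 1.5 times or within the median SD between probe sets, and 10 did not. Without STAT3 the family's median of -0.03 became 0.21 with arrays centred on their medians. The median became -0.45 without probe sets that can match several transcripts, which were kept where a gene had no other. Nfkbib was then read by its second probe set (-0.50), which lay near the background level. The higher genes in that pair numbered 2 at a threshold of 1.5-fold and 0 at 3-fold, against 1. Without STAT5 they numbered 3 at 1.5-fold, 0 at 3-fold and 0 after quantile normalization, against 1. Between the controls 1 gene, Bcl3, was lower after loess centring, after quantile normalization and at 1.5-fold, against 0. The cause of each shift was not tested beyond the construction of the setting. None of the genes recomputed singly changed sign once called. Tnf, Ccr7, Irf4, Ier3 and, without STAT3, Lta were not recomputed singly, and Tnfrsf8 and Tank have no value with the filter at the 75th percentile. Over all genes, the calls without STAT3 were 71.8% lower as deposited (354 higher, 900 lower) and 53.4% with arrays centred (514 higher, 590 lower). Between the controls they were 55.7% lower as deposited (292 higher, 367 lower) and 27.8% with arrays centred (593 higher, 228 lower). At 1.5-fold the calls over all genes numbered 704 higher and 2389 lower without STAT3, 800 and 644 without STAT5, and 1344 and 1240 between the controls, and at 3-fold 179 and 343, 73 and 70, and 82 and 95. Without a filter they were 383 and 296 without STAT5 and 357 and 631 between the controls, and with a filter at the 75th percentile of all values 223 and 551 without STAT3, 126 and 128 without STAT5, and 205 and 151 between the controls. Centring moved the median of all genes without STAT3 to 0.04. Signal over background is judged by the level of 6.20 alone.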

Other observations

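The κB motif was also counted in the promoter windows of the pathway lists. Of the negative regulators with a window, 6 of 11 held a match (Tnfaip3, Tnip1, Cyld, Nfkbid, Tank and Tax1bp1), as did 8 of 19 known target genes and 2 of 8 genes of the canonical route (Bcl10 and Map3k7), 3 of 8 TNF receptor family genes (Tnfrsf8, Tnfrsf9 and Tnfrsf25) and 1 of 6 alternative pathway genes, against 9.55% of all genes.

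As deposited, 7 of the 9 NF-κB genes had their highest level on the STAT5-deficient array, against 38.7% of all genes compared. The number was 6 with arrays centred on their medians, against 34.2% of genes, and 3 after quantile normalization, against 24.1%, so it depends on the scaling. Bcl3 was highest in STAT3 wild-type cells and lowest in STAT3-deficient cells under each of these 3 scalings.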
